A study of Mus musculus with 10 samples.

Results

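The 7 genes described here, Rere, Gse1, Arid1b, Mtss1, Trio, Hivep3 and Mtor, are long protein-coding genes on chromosomes other than 6. They were chosen by their counts of translocation junctions in the 2 etoposide libraries, out of 20761 protein-coding genes off chromosome 6. Their etoposide counts are therefore a description and not a finding. A junction belonged to a gene when it lay in the RefSeq gene body or within 2 kb of it (mm10). Over 10 libraries, 86 of 13344 junctions off chromosome 6 met this rule, and all 86 lay inside the gene bodies.

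The cells were Abelson-transformed pre-B cells of the C57BL/6 strain with the genotype LIG4-/-, which lack the ligase of classical end joining. In each group they were held in G1 with imatinib for 48 h, and doxycycline at 1 µg/ml induced a zinc-finger nuclease that cut a fixed bait site on chromosome 6. High-throughput genome-wide translocation sequencing then read the prey, the DNA to which the bait end had been joined. The untreated and etoposide groups had 2 libraries each. IFN and DRB were each given with and without etoposide, and the AsiSI enzyme was induced with and without DRB, which made 6 further groups of 1 library. Etoposide exposure lasted 2.5 h at 50 µM, and the washed cells were cultured for 12 h more. DRB, an inhibitor of transcription elongation, was added 2 h before etoposide or before AsiSI induction. AsiSI is a restriction enzyme, and tamoxifen (1 µM, 20 h after doxycycline) was given only to the AsiSI libraries. IFN is named in the labels by its abbreviation alone, with no dose. The labels name etoposide replicate 1 as the control of both combinations with etoposide. They do not say whether replicates were separate cultures, or how many cell lines or clones were used. No expression was measured, so B-lineage identity could be checked only by junctions in the immunoglobulin kappa locus, which numbered between 201 and 1730 per library.

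Topoisomerase II passes one DNA duplex through a break in another, and etoposide holds the enzyme on its cut DNA, so that breaks can persist and be joined elsewhere. Such breaks are known to be frequent in transcribed genes and at the anchors of chromatin loops. Off the bait chromosome, called trans prey here, a junction with the bait is a translocation. The 7 genes do not form a pathway. Rere encodes a corepressor of the atrophin family, Gse1 a component of histone deacetylase corepressor complexes, and Arid1b a DNA-binding subunit of the BAF chromatin remodeller. Hivep3 encodes a large zinc-finger protein that binds κB-like sites, and Mtor the kinase of both mTOR complexes. Trio encodes a guanine nucleotide exchange factor for small GTPases that shape the cytoskeleton, and Mtss1 a membrane-bending protein that regulates actin.

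Joints from the deposited reads show what was measured in each gene. For each gene the joint of lowest coordinate in the IFN with etoposide library is printed, since that library did not choose the genes. Mtss1 and Trio had none there and are shown from etoposide replicate 2. The sequence runs 5′ to 3′ from 20 bait bases in lower case into prey bases in capitals. Bases covered by both the bait and the prey alignment, called shared here, are in capitals too.
Rere, chr4:150575148-150575187, plus strand: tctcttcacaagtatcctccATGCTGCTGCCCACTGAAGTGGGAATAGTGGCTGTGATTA
Gse1, chr8:120506825-120506864, plus strand: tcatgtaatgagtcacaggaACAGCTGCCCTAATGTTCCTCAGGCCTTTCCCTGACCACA
Arid1b, chr17:5082954-5082993, plus strand: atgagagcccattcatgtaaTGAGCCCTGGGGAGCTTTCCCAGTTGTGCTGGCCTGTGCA
Mtss1, chr15:59006713-59006752, minus strand: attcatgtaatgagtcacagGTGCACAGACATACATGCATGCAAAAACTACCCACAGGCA
Trio, chr15:27865550-27865589, plus strand: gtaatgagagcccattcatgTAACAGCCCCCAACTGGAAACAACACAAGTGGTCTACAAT
Hivep3, chr4:120133046-120133085, minus strand: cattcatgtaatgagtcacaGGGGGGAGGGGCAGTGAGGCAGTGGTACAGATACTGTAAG
Mtor, chr4:148475476-148475506, plus strand: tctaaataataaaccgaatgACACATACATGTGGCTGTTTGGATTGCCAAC
The bait parts end at different bases, because the bait end was trimmed to a different extent in different joints. The number of bases shared by bait and prey was 2 in the Rere joint, 4 in the Gse1 and Arid1b joints, 1 in the Mtss1 and Mtor joints, 3 in the Trio joint and 2 in the Hivep3 joint.

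Trans prey per library numbered 6443 and 2049 in etoposide replicates 1 and 2 and 2005 with IFN and etoposide. The untreated libraries had 618 and 247, and DRB with etoposide had 163. IFN alone gave 146 and DRB alone 108, while AsiSI gave 709 without DRB and 856 with it. Read names placed untreated and etoposide replicate 1 in 1 sequencing run, and etoposide replicate 2 in the same run as both libraries with a second drug and etoposide. Untreated replicate 2, IFN alone and DRB alone were in another run. Etoposide and sequencing run therefore cannot be told apart in replicate 2 or between the IFN libraries. The median prey alignment was 253 and 272 bases in the first of these runs and between 60 and 79 bases in the other 8 libraries.

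The 7 genes held 60 junctions in etoposide replicate 1 and 19 in etoposide replicate 2. Per 1000 trans prey this was 9.31 (exact 95% Clopper-Pearson interval 7.11 to 12.0) and 9.27 (5.59 to 14.4). The replicates came from different runs, but both chose the genes, so the closeness of these values is no check of reproducibility. In IFN with etoposide the genes held 6 junctions, or 2.99 per 1000 (1.10 to 6.50). The untreated libraries held 0 and 1 junctions, the 1 being in Mtor in replicate 2. The libraries of IFN alone, DRB alone, DRB with etoposide and both AsiSI groups held 0. A count of 0 allows up to 0.485% of trans prey in untreated replicate 1. It allows 1.84% in DRB with etoposide, 2.05% in IFN alone and 2.78% in DRB alone, and 0.423% and 0.350% in AsiSI without and with DRB. The level of 0.931% in etoposide replicate 1 lies below the limits with IFN, DRB, and DRB with etoposide. Joining to these genes at that level was therefore not detectable at the depth of those 3 libraries. The level in IFN with etoposide, which did not choose the genes, lies below the limits of all 6 libraries without a junction (4.85 per 1000 in untreated replicate 1, 4.23 and 3.50 in AsiSI without and with DRB), so that level was not detectable in any of them. These intervals and limits cover counting error only, and reads of 1 molecule can be counted more than once.

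**Figure D1:**
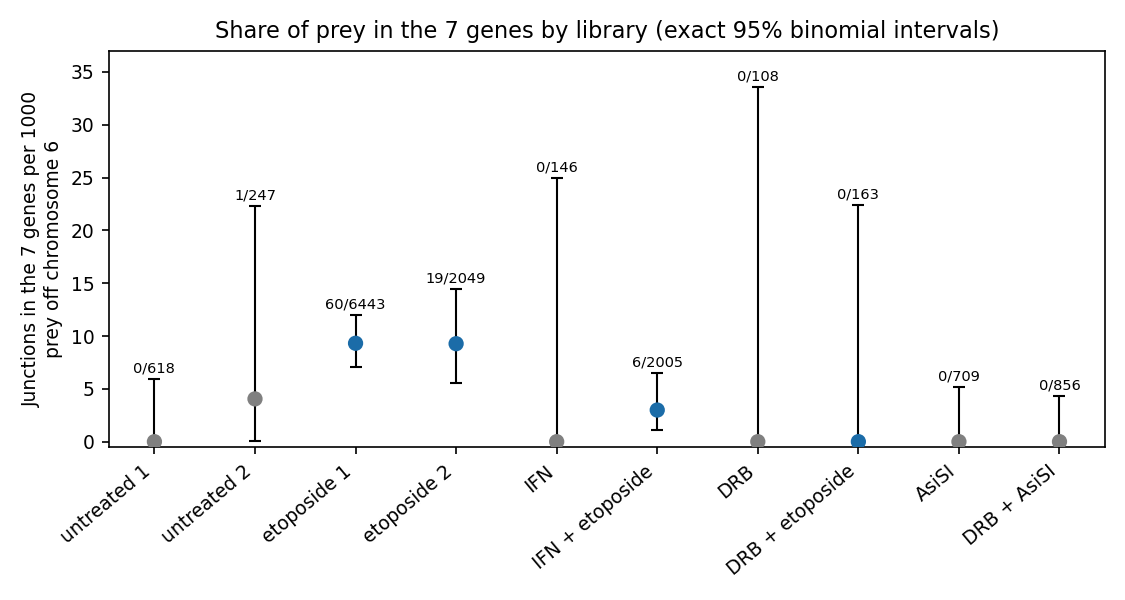
Junctions in the 7 genes per 1000 trans prey (y axis) in each of the 10 libraries (x axis), with exact 95% binomial intervals as bars and the counts printed above them; blue points are libraries with etoposide. The etoposide replicates lie at 9.31 and 9.27 and IFN with etoposide at 2.99, while the 4 libraries with the fewest trans prey have intervals that reach above 20.

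Pooled over replicates, the genes took 79 of 8492 trans prey with etoposide and 1 of 865 without treatment, a ratio of 8.05 (exact conditional 95% interval 1.40 to 322). The rule used this contrast, so the ratio supports nothing and has no test. It also rests on 1 untreated junction. Without untreated replicate 1 it was 2.30, and without untreated replicate 2 it was a lower bound of at least 1.92-fold higher, set by 3 counts per group. Of the 1729 coding genes between 109 and 404 kb long, which is the span of the 7 genes, 0.521% had at least 10 etoposide junctions.

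The rule had no sharp edge. Etoposide counts over both replicates were 13 in Rere, 12 in Gse1 and in Trio, 11 in Arid1b and in Mtss1, and 10 in Hivep3 and in Mtor. Just outside lay 3 genes with 10 junctions each, the transcription factor genes Ebf1 and Cux1 and the adaptor gene Blnk. A further 5 genes, Prkcd, Snx29, Arhgap24, Celf2 and Rgl1, had 9. With repeated positions of a library counted once, Mtor fell from 10 to 8 and Hivep3 from 10 to 9, below Ebf1, Blnk and Cux1, which stayed at 10.

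Among the chromatin and transcription genes, Rere (chromosome 4, 150281511 to 150621966) had 10 junctions in etoposide replicate 1, 3 in replicate 2, 1 with IFN and etoposide, and 0 in the other 7 libraries. Gse1 (chromosome 8, 120228501 to 120581383) had 8, 4 and 2 in the same 3 libraries and 0 elsewhere. Arid1b (chromosome 17, 4994297 to 5347656) had 8, 3 and 1, and Hivep3 (chromosome 4, 119733759 to 120138045) had 9, 1 and 1, both with 0 in the other 7. Joining in the 2 etoposide libraries was part of the choice of genes. In IFN with etoposide, which was not, all 4 of these genes were joined, by 1 or 2 junctions each. At least 1 junction there was found in 18.6% of coding genes of the length range. Per 1000 trans prey Gse1 lay at 1.24, 1.95 and 0.998 in etoposide replicates 1 and 2 and IFN with etoposide, and Rere at 1.55, 1.46 and 0.499.

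Mtor (chromosome 4, 148448582 to 148557685) had 8 junctions in etoposide replicate 1, 2 in replicate 2, 1 with IFN and etoposide and 1 in untreated replicate 2. It was the single gene of the 7 with a junction outside etoposide. The cytoskeletal regulator genes were not joined with IFN and etoposide. Trio (chromosome 15, 27730649 to 28025848) had 10 and 2 junctions in the etoposide libraries, and Mtss1 (chromosome 15, 58941234 to 59083956) had 7 and 4, with 0 in the other 8 libraries. For both, a count of 0 in 2005 trans prey allows up to 1.496 per 1000, which is above their pooled etoposide rates of 1.41 in Trio and 1.30 in Mtss1. A lower rate of these 2 genes in that library was thus not detectable.

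The library with IFN and etoposide is the check on the choice of genes, since it was not used for it. At least 1 junction occurred there in 5 of the 7 genes, against 18.6% of all coding genes of the same length range, and at least 2 in 1 of the 7 (Gse1), against 3.41%. Within this range the 7 genes, 2.00 Mb in sum, are longer on average than the other 1722, 329 Mb in sum. These shares are therefore not matched by length. Per Mb and per 1000 trans prey, the 7 genes carried 1.48 junctions and the other 1722 genes 0.580, a ratio of 2.55 (exact conditional 95% interval 0.929 to 5.59). The same density in the other genes would have given 2.36 junctions where 6 were seen. The interval includes a ratio of 1, so the higher density was not separable from counting error, and with 1 library there is no replicate check.

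Against the etoposide libraries, the rate of the 7 genes in IFN with etoposide was lower, at 0.322 of the etoposide rate (interval 0.115 to 0.732). Against etoposide replicate 2 alone, from the same sequencing run, it was 0.323 (0.105 to 0.840). At the etoposide rate 18.7 junctions would have been seen. The other genes of the length range were at 1.02 (0.908 to 1.14), with 390 junctions in IFN with etoposide. The 8 genes just outside the rule, with 9 or 10 etoposide junctions each, had 75 in etoposide and 4 in IFN with etoposide, a ratio of 0.226 (0.0600 to 0.603). Because both sets stand out by their etoposide counts, these ratios are descriptions with no test, and the part that the choice itself plays in them was not tested.

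Tests of single genes between libraries had little to work on. Fisher's exact test (two-sided, Benjamini-Hochberg adjusted) on genes with at least 3 junctions compared IFN with etoposide against IFN over 27 genes and called 0 (0% called, with 1 gene at an unadjusted p under 0.05). Against DRB with etoposide it called 1 of 28 genes (3.57%), Crisp1, named after its values were seen, with 1 junction in IFN with etoposide and 4 in DRB with etoposide (Fisher's exact test, adjusted p = 0.00407). With repeated positions counted once that call was lost. None of the 7 genes reached 3 junctions in these pairs. When genes with at least 1 junction were tested, 5 of the 7 entered both comparisons, each with an unadjusted Fisher p of 1, and 0 of 1389 and 0 of 1387 genes were called (0% each), with 2 and 4 genes at an unadjusted p under 0.05. These tests compare libraries and not conditions, and IFN with etoposide and IFN alone came from different sequencing runs.

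Without etoposide, the share of all coding genes of the same length range with at least 1 junction was 3.53% and 1.62% in the untreated libraries, 1.16% in IFN alone and 0.752% in DRB alone. In the AsiSI libraries it was 3.41% without and 4.57% with DRB, and in DRB with etoposide it was 1.27%. Of the 7 genes, 0 were joined in 6 of these 7 libraries and 1 in untreated replicate 2. At such shares 0 of 7 is no more than the background gives.

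Density followed length. In the etoposide libraries it was 10.4 junctions per Mb per 1000 trans prey in Mtor (109 kb long; 95% Poisson interval 4.99 to 19.1) and 8.83 in Mtss1 (143 kb; 4.41 to 15.8). It was 4.72 in Trio (295 kb), 4.44 in Rere (340 kb), 3.96 in Gse1 (353 kb), 3.62 in Arid1b (353 kb) and 2.88 in Hivep3 (404 kb; 1.38 to 5.30). Mtor and Mtss1 have intervals that overlap widely, as do the 5 longer genes with one another. Over the 7 genes density and length had a Pearson r of -0.991 and a Spearman rho of -1. This order is set by the rule, since counts between 10 and 13 divided by length fall as length rises. In the other 1722 genes of the length range the median etoposide density was 0, with 959 genes at 0, the 95th percentile was 2.62 and the highest value 8.06. In IFN with etoposide the densities were 4.41 in Mtor, 2.80 in Gse1, 1.45 in Rere, 1.40 in Arid1b, 1.22 in Hivep3 and 0 in Mtss1 and Trio. There the 95th percentile of the other genes was 3.87, which Mtor alone exceeded, with 1 junction.

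**Figure D2:**
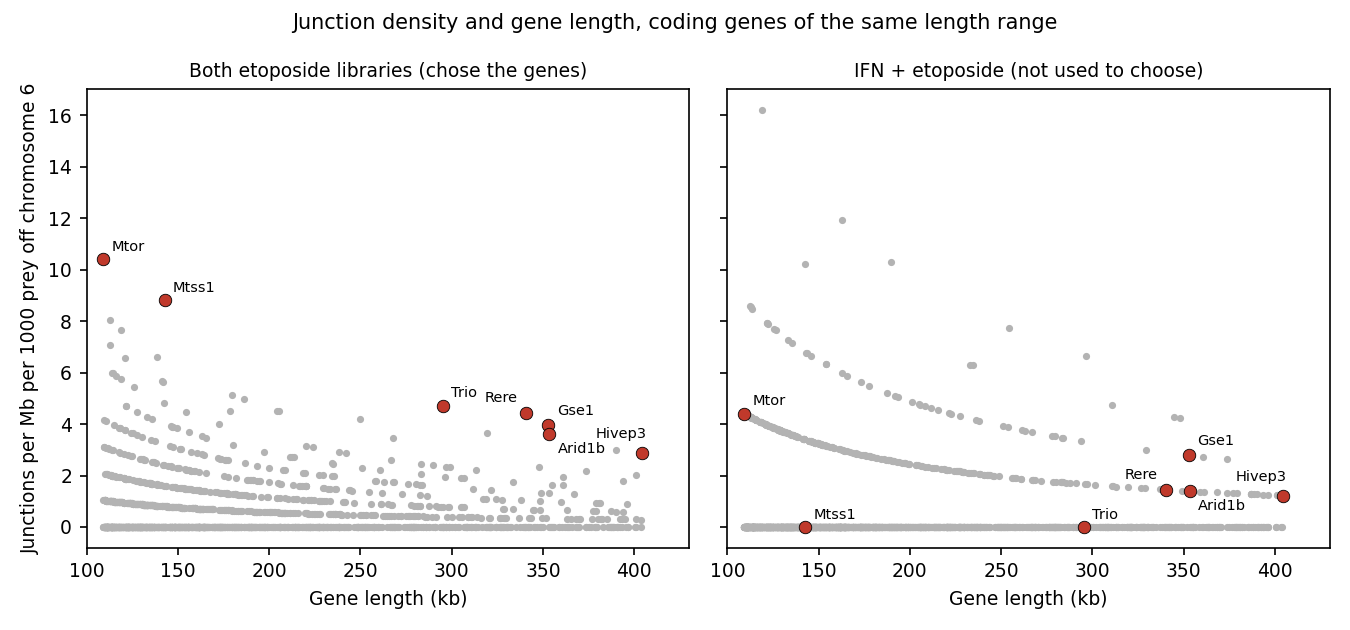
Junctions per Mb per 1000 trans prey (y axis) against gene length in kb (x axis) for the 7 genes (red) and the other 1722 coding genes off chromosome 6 of the same length range (grey), in both etoposide libraries (left) and in IFN with etoposide (right). In the left panel the 7 genes lie along the upper edge, since they were chosen there; in the right panel Mtor lies at 4.41 and Mtss1 and Trio at 0, and the curved grey bands are genes with equal junction counts.

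Where the junctions lay within each gene was not part of the rule. RefSeq's promoter table (GRCm38.p6, the same coordinates as mm10 on main chromosomes) gives the orientation of 6 of the 7 genes, and Mtss1 is not listed there. In these 6 genes 74 junctions came from libraries with etoposide. Position was counted from the 5′ end of the annotated body, which in Gse1 lies far upstream of all its listed starts. The last 20% of Gse1 therefore holds listed starts too. The body of Hivep3 likewise begins upstream of its 1 listed start, at 119733759 against 119814678, and its first 20% held 0 junctions. The first stretch is thus not next to a listed start in every gene. In the 6 genes the first 20% of the gene length held 18.9% of the 74 junctions (exact interval 10.7 to 29.7). The 3 middle stretches of equal length held 16.2%, 21.6% and 16.2%, and the last 20% of the length 27.0% (17.4 to 38.6). The other genes of the length range held 25.4% (23.3 to 27.7) in the first 20% and 21.4% (19.3 to 23.6) in the last, over 1505 junctions. The intervals of the 6 genes include both values. In the first 10% of the length lay 6.76% (2.23 to 15.1) of junctions, against 15.5% (13.8 to 17.5) in the other genes. Here the interval of the 6 genes lies below the value of the other genes, although the intervals themselves overlap. With repeated positions counted once the share was 7.25% (2.39 to 16.1) against 15.7%, and without Gse1 6.67% (1.85 to 16.2) against 15.5%. In etoposide replicate 1 alone it was 9.43% (3.13 to 20.7) against 16.0%. In these checks the interval includes the value of the other genes. Without DRB with etoposide it stayed below that value (2.23 to 15.1 against 15.7%). By library, the share in the first 20% was 24.5% (13 of 53 junctions; 13.8 to 38.3) in etoposide replicate 1, 6.67% (1 of 15; 0.169 to 31.9) in replicate 2 and 0% (0 of 6; up to 45.9) in IFN with etoposide. The share in the last 20% was 18.9% (9.44 to 31.97), 46.7% (21.3 to 73.4) and 50.0% (11.8 to 88.2) in the same order. These intervals overlap. Without etoposide replicate 1 the first 20% held 4.76% (0.120 to 23.8) and the last 20% 47.6% (25.7 to 70.2), against 25.3% and 21.6% (18.4 to 25.1) in the other genes. The first-stretch interval then lies below the 25.3% but overlaps the interval of the other genes (21.9 to 29.0). The last-stretch interval lies above that of the other genes, but Gse1 carried 5 of these 10 junctions. Without Gse1 as well, it was 5 of 15 (33.3%; 11.8 to 61.6), which includes the value of the other genes. With all libraries and without Gse1, the last 20% held 20.0% and the first 20% held 21.7%.

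**Figure D3:**
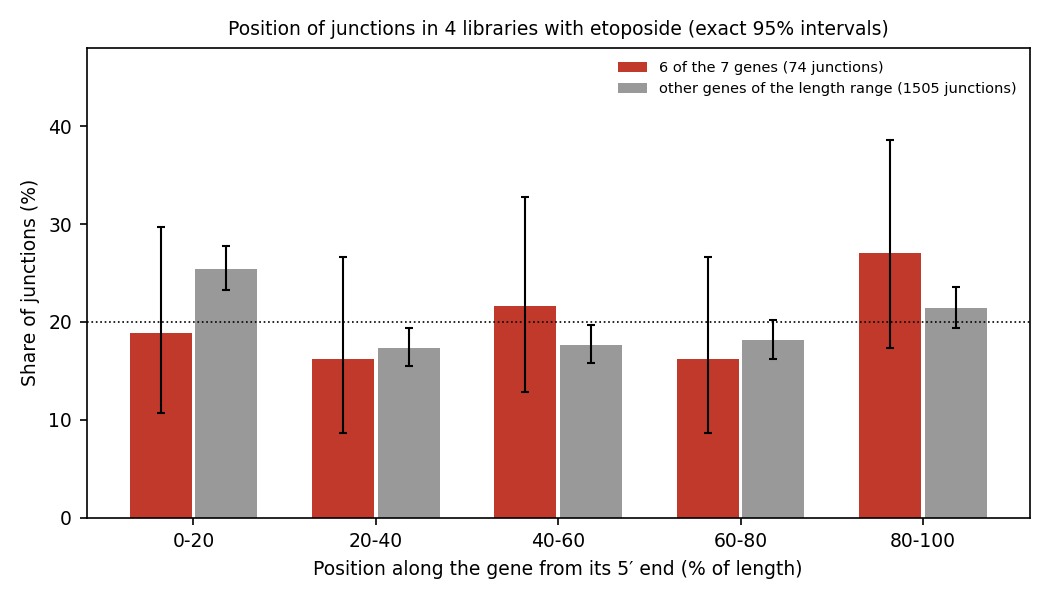
Share of junctions (y axis, %) in stretches of 20% of the gene length from its 5′ end (x axis) for the 6 genes with a known orientation (red, 74 junctions) and the other genes of the same length range (grey, 1505 junctions), pooled over 4 libraries with etoposide. Bars are exact 95% binomial intervals and the dotted line marks 20%; the first stretch is at 18.9% and 25.4%.

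The genes differed in where their junctions lay. Mtor was joined between 16.4 and 67.9 kb from its start, with a median of 23.8 kb. Arid1b had 6 of 12 junctions in the first 20% of its length, the first of them 15.5 kb from the start, and its median lay at 77.9 kb. Hivep3 was joined only beyond 132 kb, with a median of 252 kb and its IFN with etoposide junction at 399 kb. Its 1 listed promoter also lies inside the annotated body, and the nearest junction was 51324 bp from it. Trio was joined from 44.5 to 281 kb, and Rere had 1 junction at 0.753 kb and none again before 123 kb. Mtss1 was joined between 37.8 and 135 kb from its end of lower coordinate. Of the 86 junctions, 5 lay in another annotated gene as well, and 1 of these, in Trio, lay in a second coding gene, Gm29975.

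**Figure D4:**
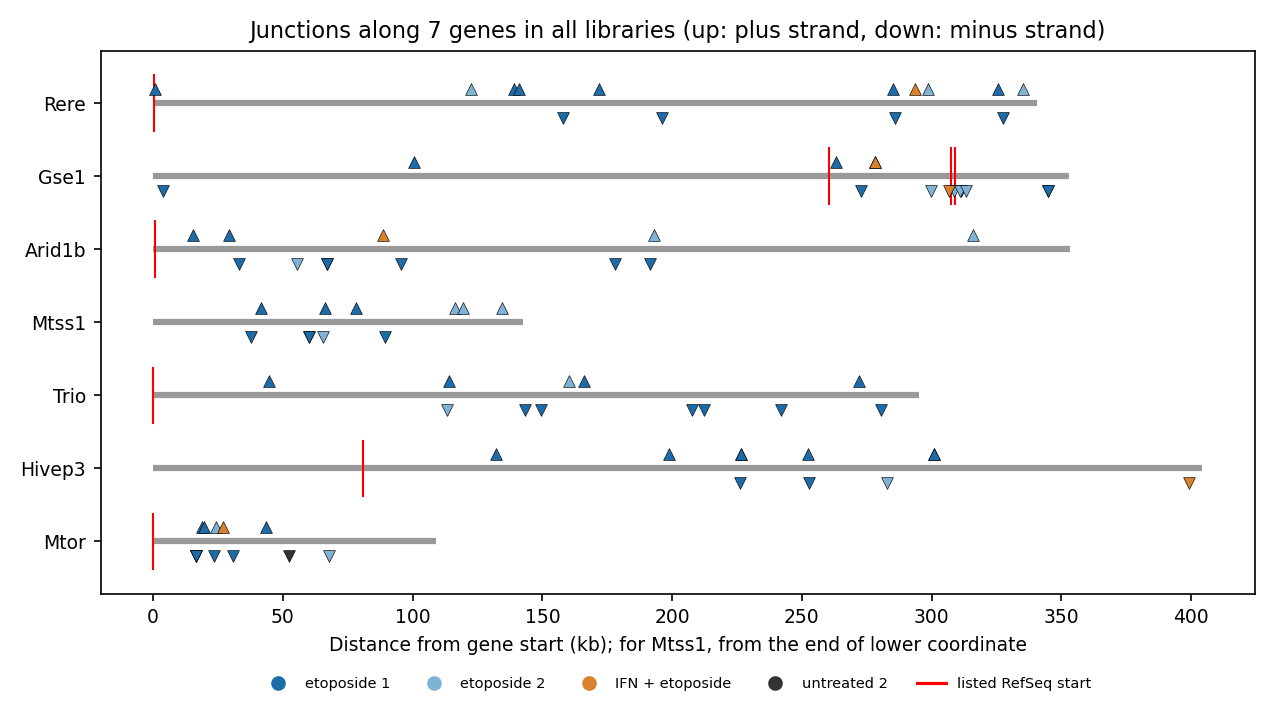
Position of the 86 junctions along the 7 genes (x axis, kb from the gene start; rows, genes), with upward triangles for prey on the plus strand and downward ones for the minus strand, coloured by library, and red lines at starts listed in RefSeq's promoter table. In Gse1, 12 of 14 junctions lie between 263 and 345 kb, downstream of the first listed start, and in Mtor they lie between 16.4 and 67.9 kb.

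Gse1 was joined mostly toward the 3′ end of its annotated body, which is also where its listed starts lie. The body begins at 120228501, and the first of its 3 listed starts is at 120488866. Of its 14 junctions, 2 lay at 3.89 and 101 kb and 12 between 263 and 345 kb. Within 6.47 kb, from 307 to 313 kb, lay 5 junctions from 3 libraries: 1 from etoposide replicate 1, 3 from replicate 2 and 1 from IFN with etoposide. All 5 had prey on the minus strand, which runs back toward the upstream end of Gse1. Of the 3 listed Gse1 promoters, 2 lie in this stretch, and the nearest junctions were 688 and 182 bp from their starts. The stretch was picked after its values were seen, so it has no test. In a neighbouring stretch, junctions from IFN with etoposide and from etoposide replicate 1 lay 36 bp apart, both on the plus strand.

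A junction of etoposide replicate 2 lay inside the third listed promoter of Gse1, which runs from 250 bases before to 50 after the start. The window is printed on the plus strand from RefSeq (GRCm38.p6), 5′ to 3′, with the bases covered by the prey read in capitals. All 69 of these bases were equal in the read.
Gse1 promoter, chr8:120537159-120537458: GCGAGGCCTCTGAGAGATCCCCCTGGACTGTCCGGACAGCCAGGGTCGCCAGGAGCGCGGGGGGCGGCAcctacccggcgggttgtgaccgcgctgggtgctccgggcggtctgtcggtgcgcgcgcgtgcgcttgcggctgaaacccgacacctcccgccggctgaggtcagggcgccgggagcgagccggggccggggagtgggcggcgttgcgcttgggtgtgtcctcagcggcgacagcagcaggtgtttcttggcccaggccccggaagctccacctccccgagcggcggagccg
The junction is at 120537227, the last capital. This promoter holds 37 CpG dinucleotides and is 74.7% G and C. The 8 listed promoters of the 6 genes held between 11 (Hivep3) and 42 (Arid1b) CpG dinucleotides, with a median of 23.5, against a median of 7 over all 32851 listed promoters. On either strand, the GC box GGGCGG occurred in 6 of the 8 and in 35.7% of all promoters, and the TATA box TATAAA in 1 of the 8 and in 13.6%. These letter strings cannot overlap each other. A match is a description of these windows and not a bound site.

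Few junctions lay at starts elsewhere. Within 1 kb of a listed start lay 4.05% (0.844 to 11.4) of the 74 oriented junctions, which were 2 in Gse1 and 1 in Rere, against 3.72% in the other genes of the length range. Within 5 kb lay 9.46% (3.89 to 18.5) against 10.4%. The 7 junctions within 5 kb were 6 in Gse1 and 1 in Rere. The intervals of the 6 genes include the values of the other genes. Without Gse1, 1 of 60 junctions lay within 5 kb (1.67%; 0.0422 to 8.94), an interval below the 10.4% of the other genes that overlaps theirs (8.87 to 12.0). Without etoposide replicate 1 the share within 5 kb was 19.0% (5.45 to 41.9) against 9.42% (7.23 to 12.0), which overlap too.

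On strand the intervals include an even split. In libraries with etoposide, 42 of 85 junctions (49.4%; 38.4 to 60.5) had prey on the plus strand of the genome, and 50.2% of other trans prey did. Prey ran in the direction of transcription in 38 of the 74 oriented junctions (51.4%; 39.4 to 63.1) and in 49.0% in the other genes of the length range. Single genes ranged from 10 of 14 in the direction of transcription in Rere to 4 of 14 in Gse1.

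Most joints carried microhomology, counted here as bases of the read covered by both the bait and the prey alignment. Whether each such base matched both sides was not checked. The 3 reads at 1 Mtor position were scored with 0, 6 and 7 shared bases. Joints with shared bases made up 92.9% (85.3 to 97.4) of the 85 joints with etoposide. Among the 10575 other trans joints in the same libraries they made up 83.8% (83.1 to 84.5). Direct joints made up 5.88% (1.94 to 13.2) against 11.7% (11.1 to 12.3), and joints with inserted bases 1.18% (0.0298 to 6.38) against 4.49% (4.10 to 4.90). For direct joints and insertions the intervals overlap, and for microhomology they do not. With repeated positions counted once the microhomology intervals were apart too (85.8 to 97.9 against 83.1 to 84.6). Without Gse1 they overlapped (84.3 to 97.7 against 83.1 to 84.5), as they did without etoposide replicate 1 (74.0 to 99.0 against 83.3 to 85.5). Within etoposide replicate 1 the microhomology share was 93.3% (83.8 to 98.2) against 83.4% (82.5 to 84.3), and within replicate 2 it was 89.5% (66.9 to 98.7) against 84.2% (82.6 to 85.8). In IFN with etoposide all 6 joints had it, against 86.2%. The interval of etoposide replicate 1 lies above the 83.4% of its other prey but overlaps their interval, and that of replicate 2 includes the 84.2%. The joints of 1 gene share a locus, some repeat a position, and no test was made. The median number of shared bases was 3 in both sets. Shares of at least 4 shared bases were alike, at 36.5% (26.3 to 47.6) and 35.2%.

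Some positions were read more than once. In etoposide replicate 1, 6 of the 60 junctions in the 7 genes (10.0%) repeated the position and strand of another, against 2.77% of the other trans prey of that library. Repeats were included in the counts that chose the genes, so the rule itself favours a higher share here and the contrast supports nothing. The position at 16.4 kb in Mtor was read 3 times, with ends of the bait alignment that differed by up to 7 bases. The 3 reads are printed across the joint, bait in lower case and prey in capitals, since they carry 3 of the 8 junctions of Mtor in that library.
Mtor read 1: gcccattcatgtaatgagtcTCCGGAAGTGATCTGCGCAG
Mtor read 2: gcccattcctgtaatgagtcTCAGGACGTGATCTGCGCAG
Mtor read 3: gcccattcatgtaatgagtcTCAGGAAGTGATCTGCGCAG
Over these 40 bases the reads differ from one another at 1 to 3 bases. The end of the bait alignment and the number of shared bases moved together, the latter being 0, 6 and 7. The bait part without shared bases therefore ended at the same bait base in all 3 reads. In Arid1b and Mtss1 the repeated pairs had the same end of the bait alignment. In Gse1 and Hivep3 these ends differed by 3 bases and 1 base. The shared bases moved with them, at 2 and 5 in Gse1 and 3 and 4 in Hivep3. The bait part without shared bases thus ended at the same base within each pair. Whether such reads come from 1 joint or several was not tested.

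Pairs of distinct junctions within 1 kb of each other numbered 10 over the 7 genes. In Hivep3, 3 junctions of etoposide replicate 1 lay within 142 bp at 226 kb, and a further pair lay 395 bp apart with opposite strands. Pairs from different libraries occurred in Gse1 (36 and 630 bp apart), Mtor (751 bp) and Mtss1 (542 bp).

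Genes of the same complexes and pathways were counted beside the 7. Over the 4 libraries with etoposide, 22.6% of all coding genes off chromosome 6 had at least 1 junction. Per Mb and per 1000 trans prey, all these genes carried 0.711, 0.721 and 0.707 junctions in etoposide replicates 1 and 2 and IFN with etoposide. In the length range of the 7, the share of coding genes with a junction in the 4 libraries was 51.4%. The lists below were not matched by length to either share. In etoposide replicates 1 and 2 the 24 BAF partner genes carried 1.54 and 0.322 junctions per Mb per 1000 trans prey, against 4.60 and 4.58 in the 7 genes, which were chosen there. In IFN with etoposide they carried 0.658, against 1.48, and the 23 mTOR pathway genes 1.55. Of the BAF partner genes, 10 of the 24 had a junction in the 4 libraries with etoposide. Arid1a and Arid2, which encode the alternative subunits to Arid1b, had 3 each, and the ATPase genes Smarca2 and Smarca4 2 each. Of 17 histone deacetylase corepressor genes off chromosome 6, 6 had a junction, with densities of 0.390, 0.408 and 1.25 in these 3 libraries, among them Rcor1 and Zmym2 with 1 each. Of 23 mTOR pathway genes, 13 had one, with densities of 1.74 and 2.13 in the etoposide replicates, led by Rptor, the defining subunit of mTOR complex 1, with 4, 2 and 4 in etoposide replicates 1 and 2 and IFN with etoposide. Deptor, Mapkap1 and Depdc5 followed with 3 each. Of 16 exchange factor and actin genes, 12 had a junction, with densities of 1.11, 0.871 and 0.890, Vav2 with 7, Dock10 with 4 and Dock2 and Elmo1 with 3 each. These lists were written with earlier results of the data known and give counts, not tests.

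Of all coding genes in the length range of the 7, 51.4% had a junction in the libraries with etoposide. Beside this, 26 of 28 long B-lineage genes had a junction in the libraries with etoposide, with densities of 1.91 and 3.00 per Mb per 1000 trans prey in the etoposide replicates and 1.86 in IFN with etoposide. Cux1 led with 11, and Ebf1, Bach2 and Blnk had 10 each. Of 28 long neural genes, 18 had a junction, with densities of 0.0811, 0.102 and 0.0391 in the same libraries. Neither list is held to the length range of the 7, as Blnk is 65.3 kb and Csmd1 1643 kb long. The 51.4% is thus not a share matched to them by length. Ank2 had 6, Magi2 3 and Csmd1 2. Without etoposide the B-lineage list lay between 0 (DRB alone) and 3.03 (DRB with AsiSI), with 1.57 and 0.655 in the untreated libraries, and the neural list at 0.296 and 0.423 untreated. The value of the 7 genes in IFN with etoposide, 1.48, lay between the values of both lists, and these differences were not tested.

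The genes with the rates over 10 libraries most like the mean of the 7 were Blnk, Foxo3, Ebf1, Tmem131l and St6galnac3. Likeness was the summed absolute difference in junctions per 1000 trans prey, and it was 1.39, 1.40, 1.44, 1.55 and 1.55 for these genes. Among the 7 themselves it ranged from 0.878 in Arid1b to 3.98 in Mtor, where 1 junction in the shallow untreated replicate 2 sets most of it. Of the 7, Rere and Arid1b lay nearer to their mean than these 5 genes, Hivep3 was at 1.55 and Trio at 1.58, and Gse1, Mtss1 and Mtor lay further away.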

How the data were processed

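Genomic DNA junctions came from linear-amplification-mediated translocation sequencing on the MiSeq, called with that assay's standard pipeline, per the labels' protocols. The deposited files list 1 junction per row, with position, strand and alignments, per the file headers, and hold no counts or normalization. The submitters' processing notes name bedtools, mm10 and GRCm38.p2; aligner and versions are not given in the sources used here.

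Junctions were counted in RefSeq gene bodies (GRCm38.p6) plus 2 kb, using all rows on chromosomes 1 to 19, X and Y. Trans prey were all junctions off chromosome 6. Shared bases were computed from the overlap of the bait and prey alignments in the read, with no check that each base matched both sides. Genes were tested between single libraries by Fisher's exact test (scipy 1.17.1, Python 3.11.15) and Benjamini-Hochberg adjustment (statsmodels 0.14.6, threshold 0.05). The procedure was run on simulated counts, where recovery of changed genes was required only at a depth far above that sequenced. That run is therefore no check at the depth of these libraries. Limits for 0 use 3 counts. The genes and lists were chosen with earlier results of these data known. Named genes were the 7, the 5 next by etoposide count with ties, the 5 most alike, and up to 4 per list with the most junctions in libraries with etoposide; some list genes are not reported here. Alternatives were the window, repeated positions, totals, count minimum, and leaving out each untreated and etoposide library or each library with etoposide.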

Additional observations from a re-analysis of the deposited data

How the results depend on the processing

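The etoposide to untreated ratio of 8.05 ranged from 1.92, a lower bound, to 8.06 when a replicate was left out. It was 8.17 with a replicate block (Mantel-Haenszel, paired by the replicate numbers that the labels link) and 7.47 with repeated positions counted once. The replicate 2 pair in that block came from different sequencing runs. The interval of the 8.05 was 1.40 to 322. Per junction within 1 Mb of the bait, a different denominator, the ratio was 97.0 with its own interval of 16.9 to 3878. The size of the ratio thus depends on the denominator. Values of libraries with 0 junctions could hardly move and show no stability. Per 1000 junctions within 1 Mb of the bait, the 7 genes held 50.1 and 4.73 in etoposide replicates 1 and 2. The replicates, which chose the genes, thus lay close together per trans prey and not on that scale. Per 1000 prey outside antigen receptor loci, with chromosome 6 included, replicate 1 held 5.82. The share in the first 20% of the gene length, 18.9%, ranged from 4.76% to 22.0% with 1 library left out, and the first 10% held 6.76%. With Gse1 and etoposide replicate 1 both left out, chosen after seeing the data, the share in the first 20% was 6.67%. The plus-strand share was then 68.4%, from 49.4%. The 1 gene called between IFN with etoposide and DRB with etoposide became 2 with a minimum of 5 junctions, and 0 with a minimum of 1, with repeated positions counted once, or per junction near the bait. With a minimum of 5 no gene was left against IFN. Depth limits the libraries with IFN, DRB, and DRB with etoposide most, at 146, 108 and 163 trans prey.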

Other observations

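Among the genes related to the 7, Hivep2, a paralog of Hivep3, had 0 junctions in both etoposide libraries and 4 with IFN and etoposide, plus 1 with AsiSI. Its other paralog, Hivep1, had 2, 3 and 1 in etoposide replicates 1 and 2 and IFN with etoposide. Per Mb and per 1000 trans prey the pair of paralogs carried 0.938 and 4.42 junctions in the etoposide replicates and 7.54 with IFN and etoposide, where Hivep3 had 1.22. The difference was not tested, and the value with IFN and etoposide rests on 5 junctions.

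Rcor1, which encodes a scaffold of the CoREST corepressor complex, had 8 junctions in each AsiSI library, 1 with IFN and etoposide and 0 in the other 7. The 7 genes had 0 in both AsiSI libraries.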
